A study of Homo sapiens with 18 samples.

Results

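The transcriptome of MCF-10A cells carrying a short hairpin RNA against XPA (shXPA) was set directly against that of MCF-10A cells carrying a hairpin against ERCC5 (shERCC5). The comparison took the 6 libraries that the labels assign to these lines, 3 per line, out of 18 in the series, and the 14851 of 22031 genes in the table that reached at least 1 TPM (a transcript level scaled for transcript length and library size) in 3 or more of the 6. MCF-10A is an immortalised, non-malignant human mammary epithelial line. Each line was a stable, puromycin-selected population made by lentiviral transduction with 1 hairpin, so the silenced gene, its hairpin and the history of that population cannot be told apart. Both carry a hairpin against a repair gene, and neither is a control. The 3 libraries of cells with a non-targeting hairpin (shCTRL), which share the parental line, vector and selection, are shown beside the values as background. They entered no test except an alternative fit of all 18 libraries.

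XPA and the ERCC5 product, XPG, act in nucleotide excision repair (NER), the pathway that cuts out bulky, helix-distorting lesions such as those left by ultraviolet light. XPA has no enzymatic activity. It binds damaged DNA after the helix is opened, checks the lesion and helps to position the other factors, while XPG is the endonuclease that cuts on the 3′ side of the lesion and also steadies TFIIH, the complex that opens the helix. Both are needed by the transcription-coupled branch (TC-NER), which ERCC6 (CSB) starts at stalled RNA polymerase II, and by the global-genome branch (GG-NER), in which XPC finds the damage. The question put to the data was which genes separated the lines when 2 members of the same pathway were silenced in the same cells.

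Total TPM lay between 999341 and 999424 in the 6 libraries, and 14540 to 14893 genes reached 1 TPM in each. TPM values keep no sequencing depth. Pearson correlations of log2(TPM + 0.5) across genes were 0.966 to 0.970 within shXPA, 0.972 to 0.975 within shERCC5 and 0.930 to 0.935 between the lines. The markers of MCF-10A basal mammary epithelium were expressed in every library, KRT5 at 2209 to 2895 TPM and EGFR at 53.9 to 79.4 TPM among them. Markers of other cell types were not uniformly absent. The leukocyte gene MPO was listed at 0 in all 6, and the fibroblast collagen COL3A1 was under 0.1 TPM in each. Other leukocyte markers were present, CD68 at 14.1 to 37.2 TPM and PTPRC at 3.00 to 5.49 TPM. So were the fibroblast markers DCN, at 82.5 to 166 TPM, and PDPN, at 17.5 to 22.6 TPM. In shCTRL they stood higher, DCN at 202 to 215 TPM and PDPN at 30.3 to 35.1 TPM. The endothelial marker PECAM1 stood at 2.66 to 6.06 TPM. Mitochondrially encoded transcripts took 9.72 to 14.8% of the TPM in shXPA and 7.48 to 9.10% in shERCC5, and the 100 most abundant genes took 46.7 to 48.6% and 44.1 to 46.0%.

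The silenced genes were examined first. ERCC5 stood at 45.1, 34.3 and 43.7 TPM in the shXPA libraries and at 20.96, 21.2 and 24.7 TPM in the shERCC5 libraries, beside 47.1, 40.4 and 41.9 TPM in shCTRL. All shERCC5 values lay below all others, and the log2 difference, shXPA minus shERCC5 on the log2(TPM + 0.5) scale, was 0.86 (SE 0.123, limma, Storey q = 8.19e-04). Here and below, a number in brackets after a gene, or after "higher by", is a log2 difference on this scale. XPA stood at 9.49, 9.52 and 7.57 TPM in shXPA and at 10.8, 9.66 and 10.4 TPM in shERCC5, beside 12.9, 14.7 and 11.7 TPM in shCTRL. The shXPA values lay below the shERCC5 values, but by a log2 difference of only -0.21 (SE 0.125, q = 0.102), which did not pass the test. In this pair of lines the transcript data thus separate the level of ERCC5 and do not separate that of XPA beyond the replicate error. The study also reported Western blots of the knockdown and, in every depleted line, reduced repair of a plasmid damaged with ultraviolet light. Protein and repair are not measured by these libraries. ERCC5 shares its sequence with the readthrough entry BIVM-ERCC5, listed at 9.25, 8.22 and 8.22 TPM in shXPA and 2.01, 3.79 and 3.34 TPM in shERCC5, and the split of reads between these entries is uncertain.

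**Figure D1:**
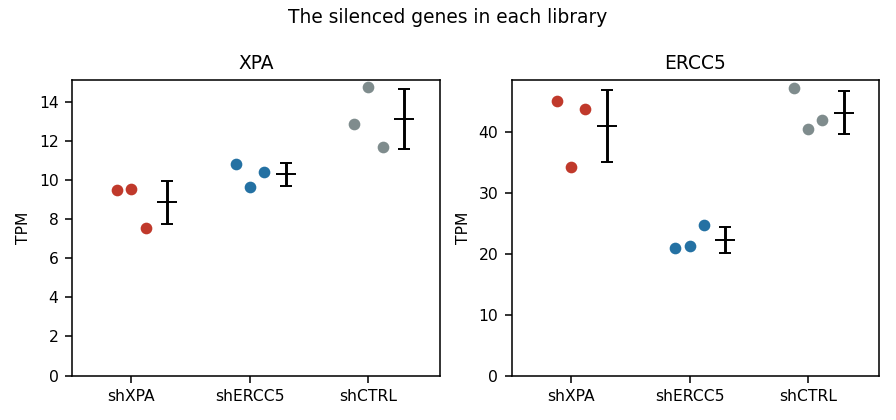
TPM of XPA (left) and ERCC5 (right) in each library of shXPA, shERCC5 and shCTRL, 3 points per line, with the mean and SD in black beside them. The ERCC5 points of shERCC5 (20.96 to 24.7 TPM) lie below the other lines, while the XPA points of shXPA (7.57 to 9.52 TPM) lie just under those of shERCC5 (9.66 to 10.8 TPM).

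Few other NER genes passed the tests. Of 30 NER genes tested, 1, ERCC5 itself, was higher by the call used throughout, a q under 0.05 with a fitted fold change above 1.5, and 0 were lower. At an unadjusted limma p under 0.05, 3 were higher and 5 lower. By q and fold, 1 NER gene was called lower without shERCC5 replicate 1, shXPA replicate 1 or shXPA replicate 3, and 2 were called higher with quantile normalization. Over all tested genes the same call took 8.93% as higher in shXPA (1326 genes) and 11% as lower (1634 genes), 19.9% in all. The median log2 difference of the NER list was -0.07, beside -0.01 over all tested genes. DDB1, part of the damage sensor of GG-NER, stood at 136, 145 and 139.8 TPM against 101, 97.4 and 98.1 TPM, a log2 difference of 0.50 that passed the q threshold (1.84e-04) but not the fold. XPC stood at 37.7, 40.2 and 35.8 TPM against 28.2, 29.02 and 34.4 TPM (log2 0.31, q = 0.0175). The other hairpin targets of the series, ERCC4 (a log2 difference of -0.18, q = 0.268) and ERCC6 (0.03, q = 0.383), did not pass. LIG3, a ligase of the list, was at 13.1, 10.8 and 9.49 TPM against 14.5, 17.7 and 17.1 TPM (log2 -0.55, q = 0.00916). LIG3 gained a call without shERCC5 replicate 1 (log2 -0.64) or without shXPA replicate 1 (-0.67). The ligase LIG1 had a log2 difference of -0.54 (q = 0.0306), also short of the fold.

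**Figure D2:**
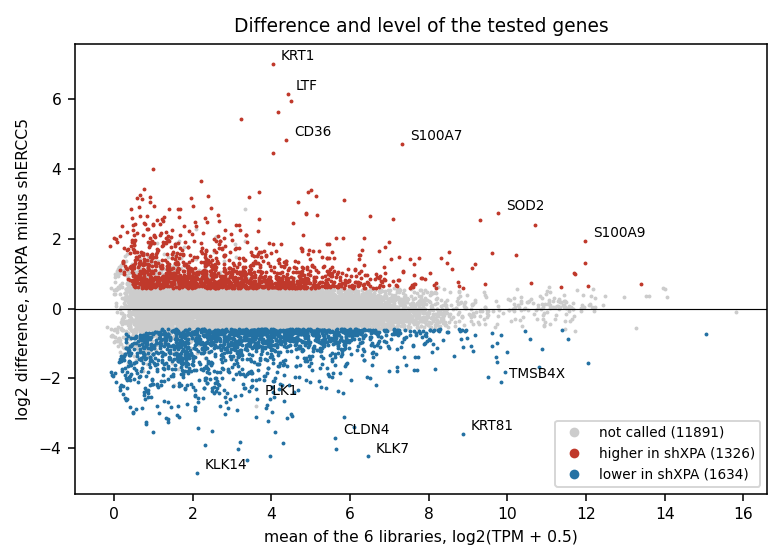
Log2 difference, shXPA minus shERCC5, of each tested gene against its mean log2(TPM + 0.5) over the 6 libraries. Red points are the 1326 genes called higher in shXPA and blue points the 1634 called lower. KRT1 lies highest, at 6.99, and KLK14 lowest, at -4.72.

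Most differences lay outside the repair genes. The log2 difference passed 1 in 549 of the genes called higher and 752 of those called lower, and it passed 2 in 105 and 162. The groups did not overlap for 3261 genes in which all shXPA libraries were above all shERCC5 libraries (22% of those tested) and for 3796 in the opposite order (25.6%).

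Genes of squamous differentiation were among the highest in shXPA over shERCC5. In stratified epithelium, basal cells express KRT5 and KRT14, and cells that leave the basal layer switch to KRT1 and KRT10 (or KRT4 in mucosa), then build a cornified envelope from involucrin, cystatin A and small proline-rich proteins. Of 25 suprabasal keratin and early differentiation genes tested, 17 were called higher in shXPA and 4 lower, with a median log2 difference of 1.01. In bulk RNA, a larger number of cells of a type and more RNA per cell cannot be told apart. KRT1 (GRCh38, chromosome 12, 52674736 to 52680407, minus strand) was listed at 206, 185 and 169.7 TPM in shXPA and at 1.18, 0.998 and 0.749 TPM in shERCC5, with 0.318, 0.599 and 0.510 TPM in shCTRL. Its log2 difference of 6.99 (SE 0.133, q = 1.26e-07) was the largest of all tested genes. The partner keratin KRT10 (chromosome 17, 40818117 to 40822595, minus strand) rose from an already detectable level, with 267, 257 and 254 TPM in shERCC5 and 1486, 1532 and 1539.5 TPM in shXPA (log2 2.55, SE 0.0505, q = 1.26e-07). KRT4 stood at 130.3, 129 and 120.2 TPM against 2.42, 1.49 and 2.40 TPM (log2 5.63, q = 6.45e-07). KRTDAP, a small secreted protein of differentiating keratinocytes, stood at 166, 169 and 198 TPM against 1.61, 2.75 and 3.08 TPM (log2 5.93, q = 1.13e-06). In none of these 4 genes did the lines overlap, and for KRT1, KRT4 and KRTDAP every shERCC5 library was under 4 TPM. FABP5, the fatty acid carrier of keratinocytes, was higher by 1.63 at a level of 663, 617 and 655 TPM in shXPA. DSG1, the desmosomal cadherin of upper layers, was higher by 3.17 (q = 1.86e-05) and LYPD3 by 1.64. The 4 members in the other direction were led by KLF4, a transcription factor of terminal differentiation, which stood at 9.23, 10.3 and 9.90 TPM against 18.5, 20.8 and 20.2 TPM (log2 -0.98, q = 1.24e-04). OVOL1 (-0.74) and DMKN (-0.69) also fell.

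Cornified envelope genes were higher in part. Among 20 tested, 10 were higher and 3 lower in shXPA, with a median log2 difference of 0.57. CSTA (cystatin A) was the most abundant of those named, at 1427, 1242 and 1454 TPM against 497, 416 and 441 TPM (log2 1.60, q = 1.12e-05). IVL (involucrin), the scaffold of the envelope, stood at 16.1, 15.8 and 15.6 TPM against 3.38, 2.84 and 3.56 TPM (log2 2.12, q = 1.19e-05). SPRR3 stood at 61.5, 57.2 and 64.4 TPM in shXPA, 0.941, 0.962 and 0.881 TPM in shERCC5 and 15.9, 19.5 and 22.00 TPM in shCTRL, so that shERCC5 lay below both other lines (log2 5.43, q = 1.26e-07). SPRR1B was higher by 0.86. The exception was SPRR2D, at 7.81, 6.20 and 6.23 TPM against 67.01, 62.7 and 57.3 TPM (log2 -3.12, q = 1.47e-06). The other lower members, SPRR2A and SPRR2E, are near-identical to it, so the assignment of reads among them is uncertain, and both lost the call without shERCC5 replicate 1 and in the fit of all 18 libraries, which left 1 lower member in each case. Of 10 barrier lipid genes, 5 were higher and 0 lower (median 0.46). CERS3, which makes the very long ceramides of the skin barrier, was listed at 4.76, 4.01 and 4.29 TPM in shXPA and at 0.0277, 0 and 0.0122 TPM in shERCC5 (log2 3.24, q = 3.63e-05), and ALOXE3, a lipoxygenase of the same pathway, was higher by 1.04.

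**Figure D3:**
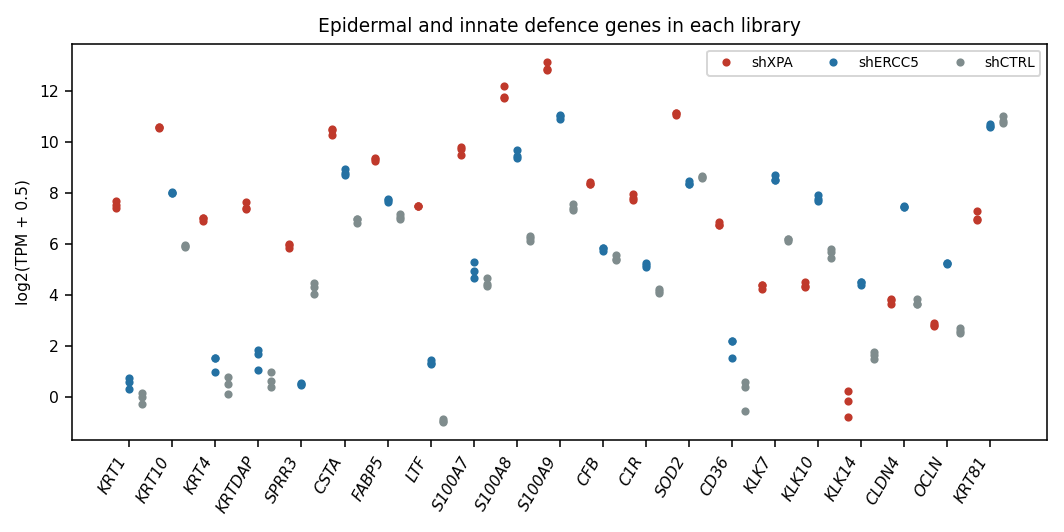
Log2(TPM + 0.5) of 21 named epidermal, innate defence, protease and junction genes in each library, with 3 points per gene for shXPA (red), shERCC5 (blue) and shCTRL (grey). KRT1 to CD36 are higher in shXPA than in shERCC5 and KLK7 to KRT81 are lower, and shXPA and shERCC5 do not overlap in any of the 21.

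The proteases that shed cells from the skin surface moved the other way. Kallikrein-related peptidases are secreted serine proteases, and KLK5, KLK7 and KLK14 cut the desmosomal proteins that hold corneocytes together. Of 10 tested, 7 were lower in shXPA and 0 higher, with a median log2 difference of -1.47. KLK7 (chromosome 19, 50976482 to 50984099, minus strand) stood at 20.6, 20.8 and 18.4 TPM in shXPA, 364, 369 and 418 TPM in shERCC5 and 73.9, 72.2 and 69.96 TPM in shCTRL (log2 -4.23, SE 0.0798, q = 1.26e-07). KLK10 stood at 19.6, 22.3 and 20.02 TPM against 205, 217 and 245 TPM (log2 -3.40, q = 4.45e-07). KLK14 was at 0.395, 0.685 and 0.0724 TPM against 20.8, 22.4 and 22.1 TPM, and its log2 difference of -4.72 (q = 1.12e-05) was the lowest of all tested genes. For these 3 genes shERCC5 was the highest of the lines shown and shXPA the lowest. KLK5 (-1.51) and KLK8 (-1.06) were also lower, and 1 kallikrein gained a call in the higher direction without shXPA replicate 1 or replicate 2. PADI2, which converts arginine to citrulline in proteins, stood at 2.08, 1.57 and 1.55 TPM against 32.6, 36.1 and 37.5 TPM (log2 -4.01, q = 1.19e-06), and CTSV, a lysosomal cysteine protease, at 2.36, 2.23 and 1.10 TPM against 48.5, 47.3 and 43.1 TPM (log2 -4.33, q = 6.63e-06). Among 9 clade B serpins, intracellular protease inhibitors, 3 were higher and 3 lower. SERPINB3 was at 109, 106 and 106 TPM against 10.4, 11.3 and 11.4 TPM (log2 3.22, q = 1.69e-07), a value that shares near-identical sequence with SERPINB4 (1.80), whereas SERPINB5 (maspin) fell by 1.02 on the log2 scale.

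The other keratins differed in both directions. Of 8 basal and stress keratins, 2 were higher and 4 lower in shXPA. KRT15, a basal keratin, stood at 2039, 1858 and 2189 TPM against 715, 714 and 676 TPM and at 31.3, 35.6 and 41.2 TPM in shCTRL (log2 1.53, q = 5.02e-06). KRT17, KRT6A and KRT16, which keratinocytes raise on wounding, were lower in shXPA. KRT17 stood at 354, 378 and 371 TPM against 1334, 1346 and 1596 TPM (log2 -1.95, q = 2.67e-06), KRT6A differed by -1.39 and KRT16 by -0.91. KRT6A, KRT6B and KRT6C are near-identical, and KRT6C was called in the opposite direction (1.66), so these members are uncertain individually. The basal pair itself changed less, with KRT5 at a log2 difference of 0.28 and KRT14 at -0.51, neither past the fold. Of 8 keratins of simple (single-layered) epithelium and of hair, 4 were lower and 1 higher. KRT81, a hair keratin, stood at 126, 121 and 158 TPM in shXPA, 1689.7, 1555 and 1592 TPM in shERCC5 and 1742, 1835 and 2083 TPM in shCTRL (log2 -3.58, q = 6.78e-07), and KRT7 was lower by a log2 difference of -0.99.

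Junctional genes were lower in part. Of 31 junction genes, 9 were lower and 2 higher in shXPA (median -0.17). CLDN4, a tight junction claudin, stood at 11.9, 13.8 and 13.6 TPM in shXPA, 181, 176 and 174 TPM in shERCC5 and 11.9, 12.01 and 13.8 TPM in shCTRL (log2 -3.71, q = 1.26e-07). Occludin (OCLN) stood at 7.01, 6.68 and 6.48 TPM against 36.5, 37.5 and 37.6 TPM with 5.97, 5.13 and 5.59 TPM in shCTRL (log2 -2.39, q = 1.19e-06). For both genes shXPA lay near shCTRL and shERCC5 stood apart. The tricellular junction receptor LSR (-1.34), the desmosomal plakophilin PKP2 (-2.25), E-cadherin (CDH1, -0.80) and P-cadherin (CDH3, -0.76) were lower too, while the stratified-epithelium desmosome genes PKP1 (1.62) and DSC3 (0.96) were the 2 that rose. Among 20 epithelial identity factors, 7 were lower and 3 higher. EPCAM, an adhesion molecule of simple and glandular epithelium, stood at 11.4, 10.7 and 10.5 TPM against 54.02, 57.7 and 58.01 TPM (log2 -2.33, q = 1.06e-06). TP63, the lineage factor of stratified epithelium, stood at 51.2, 52.3 and 43.7 TPM against 30.1, 29.7 and 32.9 TPM (log2 0.66, q = 6.59e-04), and EHF was higher by 1.06. The membrane-anchored proteases PRSS8 (-1.36) and ST14 (-0.82) were lower.

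Secreted antimicrobial genes had the highest median difference of the 45 lists other than cell identity markers. Epithelia release these proteins onto their surface, where lactoferrin and calprotectin withhold metal ions from microbes and lipocalin 2 binds bacterial siderophores. Of 15 tested, 11 were higher in shXPA and 1 lower, with a median log2 difference of 1.94. LTF (lactoferrin, chromosome 3, 46435645 to 46485234, minus strand) stood at 179, 182 and 182 TPM in shXPA and 1.99, 1.94 and 2.24 TPM in shERCC5, with 0, 0.0271 and 0.0477 TPM in shCTRL (log2 6.15, SE 0.0792, q = 3.66e-08). S100A9, a subunit of calprotectin, stood at 7396, 7450.0 and 9104 TPM against 2101, 1930.1 and 2175 TPM and at 169, 163 and 189 TPM in shCTRL (log2 1.94, q = 7.40e-06). Its partner S100A8 stood at 3389, 3497 and 4740.3 TPM against 818, 696 and 666 TPM (log2 2.40, q = 1.40e-05). The 3 groups were ordered shCTRL, shERCC5, shXPA without overlap for both subunits. S100A7 (psoriasin) stood at 902, 851 and 721 TPM against 25.2, 30.03 and 39.04 TPM (log2 4.71, q = 1.19e-06), with its near-identical copy S100A7A (3.18) uncertain. S100A12 was higher by 3.21 and LCN2 by 1.65. SLPI, an inhibitor of neutrophil elastase, was the exception at 2311, 2089 and 2115 TPM against 3268, 3226 and 3538 TPM (log2 -0.62, q = 3.16e-04), and it fell short of the fold without shERCC5 replicate 3 (log2 -0.58).

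Complement and acute phase genes rose as well. Of 23 tested, 14 were higher and 2 lower, with a median of 1.15. CFB, the protease of the alternative complement pathway, stood at 327, 329 and 344 TPM against 57.6, 53.3 and 56.7 TPM (log2 2.57, q = 1.98e-07). The proteases that start the classical pathway were at 221, 210.3 and 251 TPM against 35.5, 37.9 and 33.9 TPM for C1R (log2 2.65, q = 8.85e-07) and 89.5, 91.8 and 88.3 TPM against 13.9, 16.5 and 11.3 TPM for C1S (log2 2.67, q = 5.02e-06). C3, on which both pathways converge, was higher by 1.15 and the acute phase protease inhibitor SERPINA3 by 1.32. The 2 that fell were CFD (-1.50) and SERPINA1 (-0.80).

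Genes of the NF-kB pathway were counted as effectors and as regulators, the latter in a list that also held receptors and ligands such as CD36 and TNFSF10. NF-kB dimers are held in the cytoplasm by inhibitors such as NFKBIA until receptors for cytokines or microbial products release them, and they then switch on chemokines together with their own inhibitors. Of 28 subunit, feedback and receptor genes, 16 were higher in shXPA and 4 lower (median 0.65). SOD2, the mitochondrial superoxide dismutase and a long-known NF-kB target, stood at 2257, 2291 and 2148 TPM in shXPA, 326, 327 and 358 TPM in shERCC5 and 387, 397 and 405 TPM in shCTRL (log2 2.73, SE 0.0618, q = 2.29e-07). CD36, a scavenger receptor for oxidised lipids, stood at 107, 115 and 108 TPM against 4.03, 2.37 and 4.03 TPM (log2 4.83, q = 1.54e-06). TNFSF10, the death ligand TRAIL, stood at 47.3, 56.4 and 62.2 TPM against 10.95, 7.93 and 9.996 TPM (log2 2.47, q = 1.38e-05). TNFAIP2 was higher by 1.47 and BIRC3 by 0.78. TNFRSF6B, a soluble decoy receptor for FASLG, fell by 2.52 on the log2 scale, and TLR2 (-0.90) and IL1RL1 (-1.17) were lower. The chemokine and cytokine list was divided, with 8 of 22 higher and 6 lower (median 0.11). CXCL1, a neutrophil attractant, stood at 290.2, 248 and 287 TPM against 137, 136 and 146 TPM (log2 0.97, q = 4.43e-05), and its near-identical neighbours CXCL2 (1.56) and CXCL3 (2.00) were higher too, with the split among them uncertain. CSF1, the macrophage growth factor, was higher by 1.69. CCL28, an epithelial chemokine, stood at 8.45, 7.23 and 6.78 TPM against 46.4, 51.5 and 50.6 TPM (log2 -2.65, q = 1.99e-06), and LIF was lower by a log2 difference of -2.27. The 8 leukocyte markers in the table summed to 40.7 to 48.4 TPM in shXPA, 25.6 to 31.4 TPM in shERCC5 and 39.0 to 52.6 TPM in shCTRL, most of it CD68, with 1 of the 8, MPO, at 0 in all 6 libraries. Of the 4 leukocyte markers tested, 2 were called higher and 1 lower. PTPRC stood at 3.002, 3.91 and 5.49 TPM against 3.26, 3.93 and 3.05 TPM and ITGAM at 4.19, 7.85 and 7.56 TPM against 1.52, 2.15 and 0.629 TPM. CSF1R was the lower one, at 2.99, 3.23 and 4.61 TPM against 5.19, 6.95 and 5.77 TPM. It lost the call without shERCC5 replicate 2 or shXPA replicate 1. LYZ, too low to be tested, stood at 0.119 to 0.22 TPM against 0.598 to 1.03 TPM. The part of these markers in the differences of these immune lists was not tested.

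Promoters of 4 members called higher are shown because the NF-kB site can be read in their letters. Promoter sequence was taken from RefSeq (GRCh38.p14), 250 bases before to 50 after the start, and searched on both strands for a strict form of the site, GGGA followed by any base and TTTCC. It was found in 5 of the 25 matched regulators and receptors (20%) and in 5 of the 15 matched chemokines and cytokines (33.3%). This compares with 0.558% of all 35116 promoters and 0.58% of those of tested genes. The 5 regulators and receptors with the site were all called higher in shXPA, where 16 of the 28 list members were. Of the 5 chemokines and cytokines with it, 4 were higher and 1, IL32 (-0.82), lower, where 8 of 22 list members were higher and 6 lower. The 4 were CXCL1, CXCL2, CXCL3 and CXCL5, all on chromosome 4. The promoter letters of CXCL1, CXCL2 and CXCL3 are nearly the same, so their matches are not independent. Calls were not counted over all tested genes with the site, and whether the direction goes with the site was not tested. The 100 bases before the start follow for 4 genes chosen for that match, 5′ to 3′ on the gene's strand with the site in capitals (in TNFAIP3 and NFKBIA it reads on the opposite strand), at chr4:73869293-73869392 (plus strand), chr4:74099196-74099295 (minus strand), chr6:137867159-137867258 (plus strand) and chr14:35404750-35404849 (minus strand) in turn.
CXCL1: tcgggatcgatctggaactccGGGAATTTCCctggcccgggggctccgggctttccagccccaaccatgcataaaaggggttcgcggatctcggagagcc
CXCL2: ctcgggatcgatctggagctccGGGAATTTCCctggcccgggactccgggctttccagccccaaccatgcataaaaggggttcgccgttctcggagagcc
TNFAIP3: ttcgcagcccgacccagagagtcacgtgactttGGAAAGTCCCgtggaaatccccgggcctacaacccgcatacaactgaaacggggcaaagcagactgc
NFKBIA: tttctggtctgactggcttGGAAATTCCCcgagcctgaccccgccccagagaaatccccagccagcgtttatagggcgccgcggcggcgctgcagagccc
The letters of a match do not show binding. CXCL1 and CXCL2 were called higher, as given above, and so were the feedback inhibitors TNFAIP3 (a log2 difference of 1.12, q = 7.96e-05) and NFKBIA (0.68, q = 5.61e-05).

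Interferon-stimulated genes did not move as a block. Of 41 tested, 8 were higher and 6 lower (median 0.05). The guanylate-binding proteins GBP2 (1.86) and GBP1 (1.73) and the transcription factor IRF1 (1.20) were among the higher. IFI27 (-1.50), IFIT1 (-1.48) and OASL (-1.45) were among the lower. IRF1 stood at 44.9, 43.2 and 48.04 TPM against 16.1, 20.1 and 22.7 TPM and IFIT1 at 3.32, 4.02 and 3.88 TPM against 12.2, 10.6 and 11.1 TPM, without overlap in either. Among 19 MHC class I and antigen processing genes, 4 were higher and 0 lower (median 0.42), PSMB9 of the immunoproteasome by 1.61 and HLA-B by 1.03, a gene whose near-identical relatives make its assignment uncertain.

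Mitotic genes were lower in shXPA than in shERCC5. Cells entering mitosis raise a set of genes, among them PLK1, CDC20 and the cyclins CCNB1 and CCNB2, that are shut off in resting cells. Of 51 mitosis and G2 genes, 49 were lower in shXPA and 0 higher, with a median log2 difference of -1.93. The 2 others, BUB3 (-0.38) and CDC25B (0.38), passed the q threshold but not the fold, CDC25B in the higher direction. PLK1, the kinase that drives mitotic entry, stood at 4.53, 5.30 and 3.88 TPM in shXPA, 29.9, 28.4 and 30.9 TPM in shERCC5 and 86.4, 77.5 and 83.8 TPM in shCTRL (log2 -2.58, SE 0.124, q = 5.02e-06). CCNB1 stood at 14.4, 14.7 and 15.1 TPM against 64.2, 60.7 and 67.9 TPM with 139, 149 and 147 TPM in shCTRL (log2 -2.09, q = 1.30e-06). CDC20, the activator of the anaphase-promoting complex, stood at 8.59, 7.32 and 7.58 TPM against 40.5, 38.5 and 41.97 TPM with 135, 132 and 150.0 TPM in shCTRL (log2 -2.29, q = 2.25e-06). In all 3 genes the lines were ordered shXPA, shERCC5, shCTRL without overlap. The summed level of the list was 636 to 658 TPM in shXPA, 1517 to 1537 TPM in shERCC5 and 3560.2 to 3632 TPM in shCTRL.

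S-phase genes were lower by a smaller margin. Of 38 replication origin and fork genes, 23 were lower and 1 higher (median -0.70). CDC6, which loads the replicative helicase, stood at 2.28, 2.52 and 2.39 TPM against 8.04, 7.91 and 9.54 TPM (log2 -1.63, q = 8.33e-05), and the helicase subunits MCM2 (-1.31) and MCM3 (-1.08) were lower. TICRR, an initiation factor, was the 1 higher member at 6.62, 6.01 and 6.08 TPM against 3.31, 3.30 and 3.82 TPM (log2 0.76, q = 0.00215). Among 8 dNTP supply genes, 6 were lower and 0 higher (median -0.86). TK1 (thymidine kinase) stood at 2.33, 2.39 and 3.34 TPM against 17.1, 17.8 and 20.8 TPM (log2 -2.59, q = 1.78e-05) and RRM2, the small subunit of ribonucleotide reductase, at 4.46, 6.36 and 7.09 TPM against 42.3, 37.5 and 33.2 TPM (log2 -2.58, q = 2.65e-05). Homologous recombination and Fanconi anaemia genes, many of which are transcribed with S phase, were lower for 14 of 27 and higher for 0 (median -0.78), BLM by a log2 difference of -2.04 and EXO1 of -1.85. Without shERCC5 replicate 3 or shXPA replicate 2, 1 member of that list gained a call as higher. In the G1 list, 7 of 22 were lower and 2 higher. CCND1 (cyclin D1) stood at 33.9, 40.9 and 29.6 TPM against 67.2, 69.6 and 69.9 TPM with 240.0, 212 and 227 TPM in shCTRL (log2 -0.99, q = 3.11e-04), while CCND2 was higher by 1.04 and the inhibitor CDKN1C lower by a log2 difference of -1.82. CDKN1B, the other higher member, fell short of the fold without shERCC5 replicate 2 (log2 0.58). Of 29 p53 targets, 4 were higher and 4 lower (13.8% each, median 0.07), not far from the 8.93% and 11% over all tested genes. TP53INP1 (0.91) and SESN1 (0.77) were among the higher and GADD45A (-1.85) among the lower.

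A short element was common in the mitotic promoters and rare in the replication promoters. The cell cycle genes homology region (CHR), TTTGAA, is bound in resting cells by the DREAM repressor complex and is a known feature of mitotic genes. It was present, on either strand, in 29 of 43 matched promoters of the mitosis list (67.4%) and in 1 of 33 of the replication list (3.03%). Among all promoters it was in 15.2%, and among those of tested genes in 9.78%. The 29 mitosis genes with it were all lower in shXPA, but so were 49 of the 51 list members. Their direction therefore does not set them apart from members without the element. The CCAAT box was present in 76.7% of the mitosis promoters and in 34.6% of all. It was not particular to that list, as 19 of 27 matched cholesterol and fatty acid synthesis promoters (70.4%) held it. A sterol regulatory element, searched as TCACNCCAC, was found in 1 of those 27 (3.7%, beside 1.13% of all promoters). The hypoxia response core, ACGTG, was in 48.1% of hypoxia response promoters and 44.4% of glycolysis promoters, beside 21.4% of all. The 100 bases before the start are printed for 4 genes, all lower in shXPA, with the CHR in capitals, at chr16:23678789-23678888 (plus strand), chr15:59105046-59105145 (plus strand), chr1:43358881-43358980 (plus strand) and chr10:128126424-128126523 (minus strand) in turn.
PLK1: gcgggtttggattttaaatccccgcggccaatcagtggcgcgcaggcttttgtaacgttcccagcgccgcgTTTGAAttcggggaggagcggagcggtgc
CCNB2: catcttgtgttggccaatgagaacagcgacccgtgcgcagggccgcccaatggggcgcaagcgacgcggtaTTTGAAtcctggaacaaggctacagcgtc
CDC20: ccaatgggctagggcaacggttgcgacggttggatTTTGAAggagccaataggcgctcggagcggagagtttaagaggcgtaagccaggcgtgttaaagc
MKI67: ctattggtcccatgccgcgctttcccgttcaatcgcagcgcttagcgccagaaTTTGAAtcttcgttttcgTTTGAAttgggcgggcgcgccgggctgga
CCNB2 stood at 6.03, 5.99 and 5.86 TPM against 25.3, 23.96 and 27.5 TPM (log2 -2.01), and MKI67, the proliferation antigen Ki-67, at 2.04, 1.93 and 1.95 TPM against 10.5, 9.46 and 10.8 TPM (log2 -2.12, q = 1.94e-05). MKI67 is shown for its promoter and was picked after its values were seen. A match is a description of the letters, and no binding was measured.

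**Figure D4:**
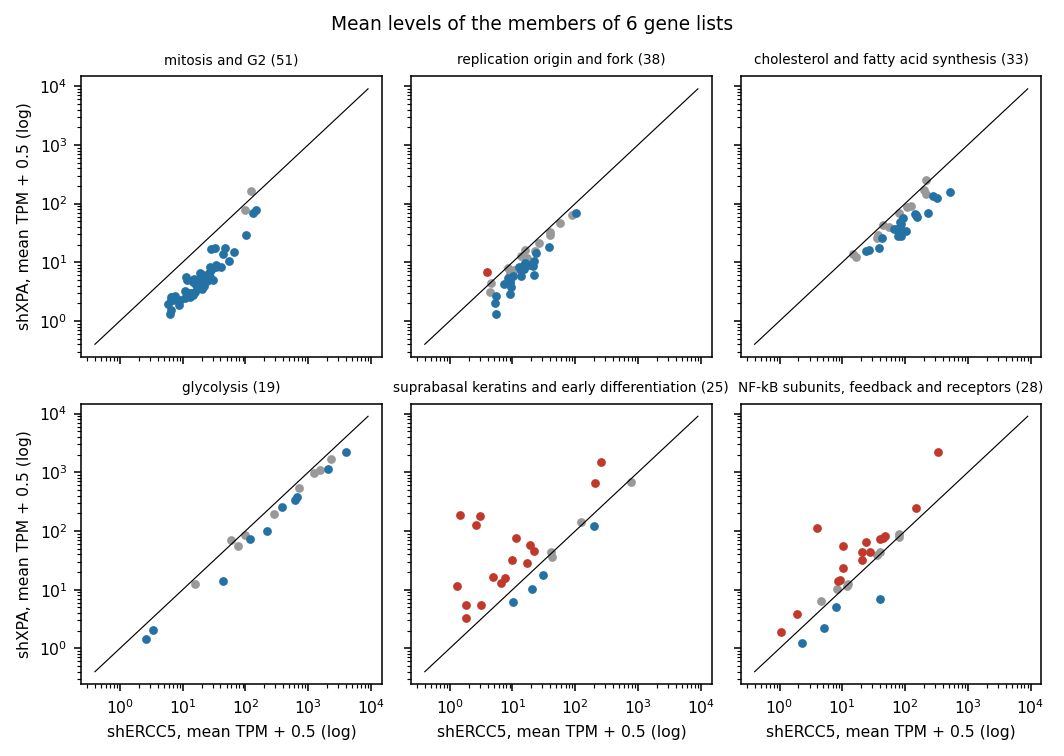
Mean TPM + 0.5 in shXPA against that in shERCC5, on log axes, for the tested members of 6 gene lists, with the number of members in brackets and the line of equal levels in black. Members called lower in shXPA are blue (49 of 51 for mitosis and G2), those called higher are red (17 of 25 suprabasal genes) and the rest are grey.

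Lipid and sugar metabolism genes were lower in shXPA. Of 33 cholesterol and fatty acid synthesis genes, 21 were lower and 0 higher (median -0.75). MSMO1, a sterol oxidase, stood at 63.9, 68.6 and 73.1 TPM in shXPA, 243, 229.9 and 233 TPM in shERCC5 and 198, 215 and 211 TPM in shCTRL (log2 -1.77, q = 1.52e-06). FDPS, which makes farnesyl diphosphate, stood at 152, 154 and 168 TPM against 521, 507 and 549 TPM (log2 -1.73, q = 1.36e-06). DHCR7 (-1.63), HMGCS1 (-1.49) and the fatty acid desaturase SCD (-1.38) were lower as well. For all 5 genes every shXPA library lay below both other lines. Of 19 glycolysis genes, 10 were lower and 0 higher (median -0.59). GAPDH stood at 2295, 2244 and 2087 TPM against 3783, 3867 and 4394 TPM (log2 -0.86, q = 1.24e-04) and LDHA, which makes lactate, at 1147, 1148 and 1101 TPM against 2063, 1961 and 2227 TPM (log2 -0.88, q = 4.21e-05). GAPDH, often taken as a constant reference, therefore differed between these lines. Among 33 hypoxia response genes, 8 were lower and 4 higher (median -0.23). CA9, the carbonic anhydrase induced by HIF-1, stood at 6.90, 7.94 and 7.70 TPM in shXPA, 64.2, 68.95 and 65.7 TPM in shERCC5 and 0.792, 0.312 and 0.250 TPM in shCTRL (log2 -3.06, q = 6.18e-07). ANGPTL4, a secreted inhibitor of lipoprotein lipase, was at 4.42, 5.15 and 4.13 TPM against 58.5, 58.1 and 57.8 TPM with 240.1, 263 and 277 TPM in shCTRL (log2 -3.54, q = 6.45e-07). The glucose carrier SLC2A1 (0.79) and the HIF subunit EPAS1 (1.09) were among the 4 higher.

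Mitochondrially encoded transcripts were higher in shXPA for 5 of 13 tested and lower for 0 (median 0.58). MT-ND1, a subunit of complex I, stood at 7446, 6679.9 and 5165 TPM against 2388, 2538 and 2762 TPM (log2 1.31, q = 1.95e-04). The count moved with the library left out, to 11 without shXPA replicate 3, which had the lowest mitochondrial share of its line, and to 3 without shXPA replicate 1 or replicate 2. With quantile normalization it was 2. Of 42 nuclear genes of the respiratory chain, 0 were higher and 2 lower, COX6A1 by a log2 difference of -1.07, and 1 of the 2 lost the call without shXPA replicate 1 or replicate 2. Of 79 cytosolic ribosomal protein genes, 0 were called in either direction (median 0.07), although the unadjusted limma p was under 0.05 for 21 in the higher direction and 7 in the lower, and 0 were called with an unmoderated spread. Without shXPA replicate 3, or with quantile normalization, 1 was called as lower. Xenobiotic genes were divided. Of 34 NRF2 targets, 9 were higher and 2 lower (median -0.02), AKR1C1 by 1.47, with its near-identical relatives uncertain, and the export pump ABCC3 by -1.16. Of 10 aryl hydrocarbon receptor targets, 4 were higher and 1, LRAT (-0.98), which esterifies retinol, was lower. Among the higher were CYP1B1 at 108, 122 and 111 TPM against 27.3, 27.5 and 27.9 TPM (log2 2.02, q = 1.13e-06) and ALDH3A1 (1.86). In the unfolded protein and integrated stress response list, 7 of 29 were lower and 4 higher, PHGDH, the entry enzyme of serine synthesis, by -1.59 and TRIB3 by -1.22.

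Matrix, adhesion and cytoskeletal genes were lower in part. Of 15 metalloproteinase and plasminogen activator genes, 7 were lower and 1 higher (median -0.41). PLAUR, the urokinase receptor, stood at 17.3, 17.1 and 17.3 TPM against 77.9, 86.7 and 87.2 TPM (log2 -2.25, q = 8.85e-07) and ADAM8 was lower by a log2 difference of -2.05. Among 8 integrins for fibronectin and collagen, 3 were lower and 0 higher, ITGA5 of the fibronectin receptor by -1.65 (q = 1.05e-05). Collagens and matrix glycoproteins were mixed, with 12 of 35 higher and 6 lower. FN1 (fibronectin) stood at 44.4, 42.4 and 40.5 TPM in shXPA, 19.6, 21.4 and 22.6 TPM in shERCC5 and 793, 743 and 728 TPM in shCTRL (log2 0.99, q = 6.44e-05) and both lines lay far below shCTRL. TNC (-1.82) and PXDN (-1.57) fell and LAMA5 rose (0.74). The 9 fibroblast markers in the table summed to 177 to 197 TPM in shXPA, 125 to 135 TPM in shERCC5 and 276 to 302 TPM in shCTRL. Most of it was DCN (0.85), with FAP in the opposite direction (-2.81), and the part of these markers in these counts was not tested. Of 29 actin, myosin and focal adhesion genes, 6 were lower and 1 higher, ACTN1 by -1.18 among the lower, and without shXPA replicate 3 the higher count was 2. The actin-binding thymosins, which no list held, were also lower, TMSB10 at 2257, 2286 and 2908 TPM against 7665, 7055 and 7264 TPM (log2 -1.57, q = 3.16e-05) and TMSB4X at 388, 441 and 508 TPM against 1919, 1926 and 1826 TPM (log2 -2.09, q = 4.65e-06).

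Signalling lists gave smaller counts. The YAP and TEAD list (12.5% higher, 16.7% lower) and the TGF-beta list (9.09% and 13.6%) lay near the 8.93% and 11% called over all tested genes. The same held for the histone list (11.5% and 7.69%). Of 18 genes of the EGF receptor family, its ligands and its feedback targets, 8 were lower and 2 higher (median -0.37). AREG (amphiregulin) stood at 54.3, 50.6 and 54.3 TPM in shXPA, 162, 163 and 165 TPM in shERCC5 and 229.5, 246 and 249 TPM in shCTRL (log2 -1.61, q = 1.28e-06), and TGFA was lower by a log2 difference of -1.25. The feedback phosphatase DUSP6 stood at 42.4, 37.1 and 38.5 TPM against 75.8, 82.05 and 88.02 TPM (log2 -1.05, q = 4.96e-05), with SPRY4 (-1.21) and PHLDA1 (-1.66) also lower, while the receptor ERBB2 rose (0.80). The other higher member, EREG, fell short of the fold without shERCC5 replicate 3 or shXPA replicate 3 (log2 0.54 and 0.55), which left 1 higher in the former case. Of 24 YAP and TEAD targets, 3 were higher and 4 lower (median 0.00), with CTGF among the higher at 13.8, 15.5 and 16.2 TPM against 2.38, 1.88 and 1.67 TPM (log2 2.67, q = 1.24e-05), as was CYR61 at 18.8, 17.6 and 21.6 TPM against 7.62, 5.92 and 5.88 TPM (log2 1.51, q = 9.60e-05), both far below the shCTRL values of 116, 122 and 126 TPM and 158, 155 and 166 TPM. NT5E (-1.92) and F3 (-1.35) were among the lower. In the Wnt list, 7 of 21 were higher and 4 lower, WNT4 at 7.59, 9.49 and 7.55 TPM against 0.554, 1.19 and 0.449 TPM (log2 2.86, q = 9.60e-05) and WNT5A by 1.16 among the higher. Among 22 TGF-beta genes, 2 were higher and 3 lower, with the pseudoreceptor BAMBI at 1.62, 1.36 and 0.874 TPM against 10.7, 10.5 and 10.9 TPM (log2 -2.67, q = 3.52e-05), and 1 stayed higher without shXPA replicate 1. Among 10 IGF axis genes, IGFBP2 (-2.24) and IGFBP6 (-1.97) led the 3 lower and 1 was higher, IRS1 (1.06), the adaptor of the insulin and IGF receptors. The higher count was 2 without shERCC5 replicate 1, shXPA replicate 2 or shXPA replicate 3. Among the remaining lists, 3 of 10 hemidesmosome genes were lower and 0 higher, LAMA3 of laminin-332 by a log2 difference of -1.13, and 3 of 16 AP-1 genes were higher (1 without shXPA replicate 3) and 1, JUN (-0.71), lower. Of 16 Notch genes, 4 were higher (2 without shXPA replicate 1) and 2 lower (1 without any other library). Of 26 histone genes, 3 were higher and 2 lower (1 without shERCC5 replicate 2 or replicate 3), and of 12 mesenchymal genes 2 were higher and 2 lower (1 without shERCC5 replicate 3).

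Several of the largest differences lay outside the lists. Higher in shXPA were ADH1B, an alcohol dehydrogenase, at 102, 89.5 and 97.3 TPM against 8.39, 10.5 and 8.57 TPM (log2 3.33, q = 8.85e-07), the chitinase-like CHI3L1 (3.10), the melanosomal and macrophage glycoprotein GPNMB (3.04) and the retinol carrier RBP4 (3.64). Surfactant protein gene SFTPB, known from lung, stood at 36.4, 32.9 and 28.1 TPM against 1.56, 3.95 and 4.62 TPM (log2 3.18, q = 1.69e-04). Lower in shXPA were C15orf48 at 1.82, 3.82 and 4.11 TPM against 66.8, 60.8 and 72.2 TPM with 4.14, 4.41 and 3.72 TPM in shCTRL (log2 -4.22, q = 1.48e-05), CAMK2N1, an inhibitor of CaM kinase II (-3.86), and the neurotrophic factor ARTN (-3.41). MARCO, a scavenger receptor of macrophages, averaged 4.49 TPM in shXPA against 45.9 TPM, with 2.78 TPM in the shCTRL libraries (log2 -3.22, q = 8.85e-07), opposite in direction to CD36. IGFL1 (-3.83) was lower together with its pseudogene entry IGFL1P1 (-4.01), between which reads may be shared. ALB stood at 10.7, 3.72 and 2.83 TPM in shERCC5, with an SD of 4.31 TPM, and at 0.245, 0 and 0 TPM in shXPA (log2 -3.24, q = 8.77e-04). Among the abundant genes with the largest TPM difference, LGALS1 (galectin-1) stood at 476, 519 and 583 TPM against 1766, 1768 and 2008 TPM (log2 -1.81, q = 6.22e-06) and ANXA2 at 1273, 1238 and 1259 TPM against 2753, 2749 and 2920.0 TPM (log2 -1.16, q = 5.65e-06).

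**Figure D5:**
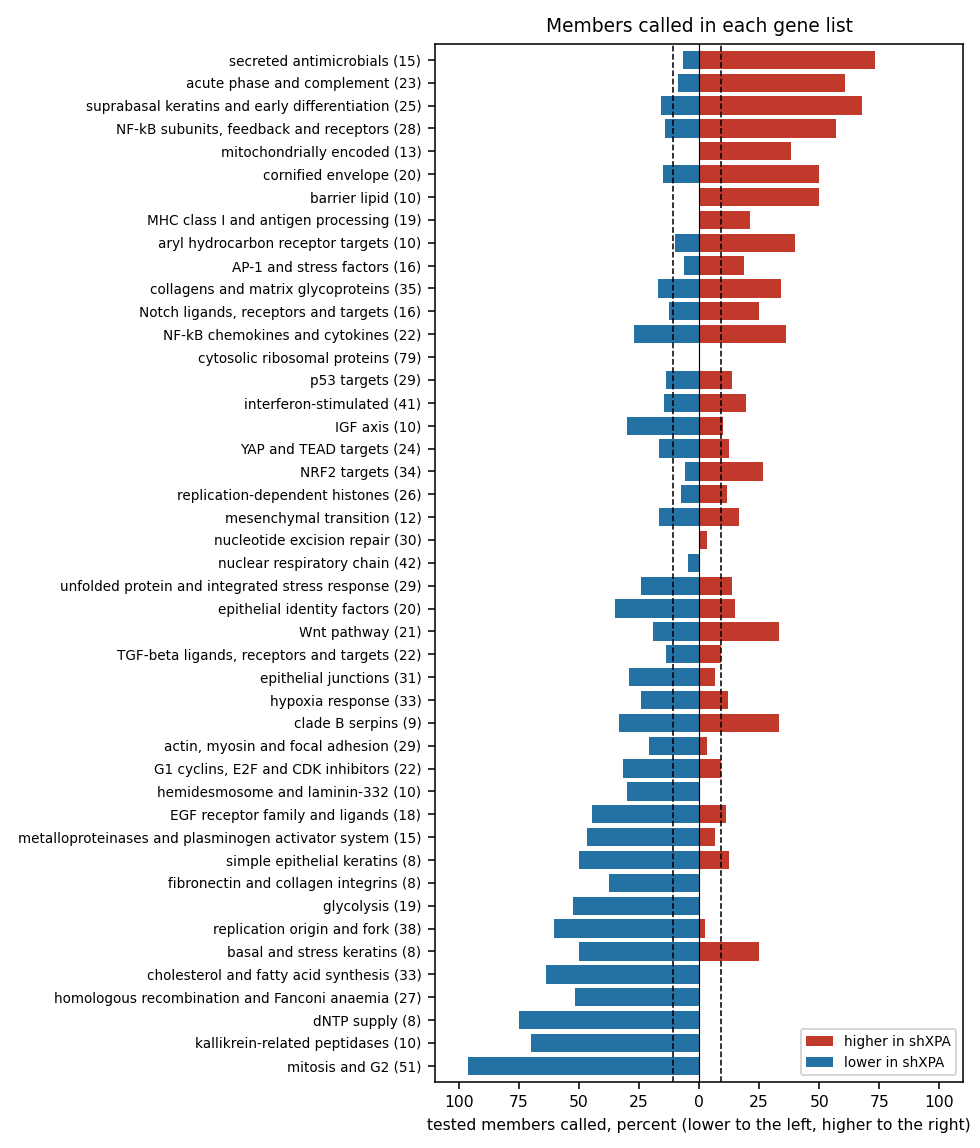
Percent of the tested members of each gene list called higher (red, to the right) or lower (blue, to the left) in shXPA, ordered by the list's median log2 difference, with the number tested in brackets. Dashed lines mark the 8.93% and 11% called over all tested genes, and the mitosis list (49 of 51 lower) and the antimicrobial list (11 of 15 higher) stand at the ends.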

How the data were processed

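RNA from stable MCF-10A lines was depleted of ribosomal RNA and sequenced, and the authors quantified transcripts with kallisto (0.43.1 in the submitters' notes, while the study's methods name a later version). The authors deposited 1 table of TPM per gene for all 18 libraries, with no counts, so sequencing depth, counting intervals and a count test could not be had. Kallisto divides reads among near-identical transcripts by estimation, which makes the values of close paralogs uncertain. The reference annotation is not given in the sources used here, and 22 gene entries read as dates in the table and were kept as listed.

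Columns were matched to samples by their names. Genes with at least 1 TPM in 3 of the 6 libraries were kept, and log2(TPM + 0.5) was fitted with limma 3.58.1 (R 4.3.3, trended prior, 6 libraries, 4 residual degrees of freedom). The pseudocount shrinks the differences of low genes. A gene under 1 TPM in every library of 1 line passed the filter only through the other line. Such a gene could be called in that direction only. Storey q-values used lambda 0.5 over all 14851 genes and came out smaller than Benjamini-Hochberg values. A call needed q under 0.05 and a fold above 1.5. Replicates were labelled as biological, but where the libraries of a line came from the same population of cells, p-values measure only the spread between them.

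Named genes were the hairpin targets, the 20 highest and 20 lowest called genes with no overlap and at least 5 TPM in the higher line, up to 6 members per list by p with up to 3 called members of the rarer direction, the identity markers, and the 10 genes per direction with the largest TPM difference among those of 100 TPM or more. Exceptions are said to be chosen after their values were seen, namely BIVM-ERCC5, BUB3, CDC25B, MKI67, TNFAIP3, NFKBIA and IL32 in the report. A few genes that the rule names are not reported here. The members and the 50 gene lists were chosen with earlier results of these data known, so list counts describe and do not test. The fit was tested on simulated data in which 200 of 14851 genes were changed. It recovered 71% of changes of log2 1 and 89% of those of log2 2, with 5 false calls. The simulation had far fewer changed genes than were called here and independent noise, so it cannot judge the calls made here. Alternatives changed the pseudocount, filter, scaling, adjustment, fold rule, spread, samples and replicate term, and left out each library. Gene positions are from GENCODE v29 (GRCh38). Promoters were from RefSeq. The other 9 libraries, with hairpins against other repair genes, were used only in the fit of all 18, which also took the 3 shCTRL libraries.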

Additional observations from a re-analysis of the deposited data

How the results depend on the processing

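The count of 2960 called genes moved most when the 1.5-fold limit was put inside the limma test, which called 789 genes, 285 higher and 504 lower in shXPA, and under which ERCC5 (log2 0.86) no longer passed (q = 0.335). That test asks for more than the same fold after the test. It took the mitosis list to 44 lower, the suprabasal list to 11 higher and the complement list to 9 higher. The list of NF-kB regulators and receptors fell to 6 higher and glycolysis to 4 lower. A filter of 5 TPM left 858 genes called higher and 1222 lower. Without a filter the counts were 1393 and 1695, with Benjamini-Hochberg adjustment 1116 and 1484, and with quantile normalization 1367 and 1526. Leaving out each library in turn gave 2739 to 3037 called genes, 1179 to 1317 higher and 1478 to 1720 lower. XPA stayed above the q threshold under all 17 alternatives, with a log2 difference from -0.26 to -0.11. The replicate number did not pair the libraries: the deviations of same-numbered libraries correlated at -0.04, 0.00 and -0.07, and 0 of 3 shXPA libraries correlated best with their own number. With the replicate block the counts were 1298 higher and 1628 lower. Signs turned in genes that were not called, with log2 differences from -0.45 to 0.00897 for ERCC4 (above 0 without shXPA replicate 3), from -0.0793 to 0.18 for ERCC6 (below 0 without shERCC5 replicate 1, shERCC5 replicate 3 or shXPA replicate 1) and from -0.11 to 0.52 for HLA-DPB1 (below 0 without shXPA replicate 2). OVOL1, SPRR2A and SPRR2E lost their calls in the fit of all 18 libraries. Quantile normalization also took the mitochondrially encoded list from 5 to 2 higher, the nuclear respiratory chain list from 2 to 1 lower and the mesenchymal list from 2 to 1 lower, gave the NER list 2 higher, and gave 1 higher call each to the homologous recombination and kallikrein lists. A filter of 5 TPM took the cornified envelope list from 10 to 5 higher, the barrier lipid list from 5 to 1 and the NF-kB chemokine list from 8 to 5. Without sequencing depth, small differences between genes under a few TPM could not be judged.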

Other observations

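The 4 gene groups described here were picked after the values had been seen and are given as values only. MHC class II genes are expressed by professional antigen-presenting cells, and interferon-gamma can induce them in epithelium. Of 16 entries in the table, 10 were tested, of which 8 were higher in shXPA and 0 lower (median log2 difference 1.54). HLA-DRA, HLA-DRB1 and HLA-DPA1 were under 1 TPM in every shERCC5 library. They passed the filter only through shXPA and could only be called higher. HLA-DPB2, also among the 8, is a pseudogene. CD74, the invariant chain, stood at 38.9, 40.5 and 41.1 TPM in shXPA, 4.72, 3.16 and 2.88 TPM in shERCC5 and 0.727, 1.47 and 1.40 TPM in shCTRL (log2 3.34, limma q = 5.76e-06). CIITA, the activator on which class II transcription depends, stood at 11.9, 9.42 and 13.5 TPM against 3.01, 3.08 and 2.50 TPM (log2 1.84, q = 1.02e-04). HLA-DRA was listed at 3.86, 4.06 and 3.89 TPM against 0, 0.292 and 0.408 TPM (log2 2.64) and at 0 in all 3 shCTRL libraries. The 3 shXPA libraries were the highest for CD74 and HLA-DRA, and HLA-DPB1 (0.16) and HLA-DOB (0.31) did not pass. Levels of the leukocyte markers PTPRC, ITGAM, CSF1R and LYZ are given in the report, and their part in this group was not tested.

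Of 17 genes that ERK signalling is known to raise, 10 were lower in shXPA and 1 higher (median -0.99). The ETS factors of this set moved together, ETV4 at 2.10, 2.43 and 1.48 TPM against 17.8, 19.4 and 21.98 TPM (log2 -3.03, q = 1.30e-05), ETV5 at 4.31, 4.46 and 5.10 TPM against 14.2, 11.3 and 16.1 TPM (log2 -1.47) and ETV1 at 1.05, 0.706 and 0.155 TPM against 11.2, 7.15 and 8.28 TPM (log2 -3.11). EMP1, a membrane protein, stood at 94.3, 101 and 98.5 TPM against 315, 288 and 306 TPM with 163, 166 and 164 TPM in shCTRL (log2 -1.63, q = 1.43e-06), so that shCTRL lay between the lines. EGR1 was the 1 higher gene, at 107, 103 and 96.2 TPM against 61.9, 62.8 and 66.3 TPM (log2 0.68, q = 1.24e-04).

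Tubulin genes were lower for 9 of 14 and higher for 0 (median -0.63). TUBA1B stood at 115, 119 and 107 TPM in shXPA, 361, 384 and 413 TPM in shERCC5 and 1372, 1282 and 1326 TPM in shCTRL (log2 -1.76, q = 2.19e-06), although near-identical tubulin genes may exchange reads. Entries of the metallothionein family, whose proteins bind zinc and copper, were divided, with 3 of 7 higher and 2 lower. The 7 include the pseudogenes MT1DP (2.86, called higher), MT1L (-1.35, called lower) and MT1JP (not called). Reads may be shared among these close paralogs, so single members are uncertain. MT2A stood at 1114, 952 and 952 TPM against 3034, 3172 and 3470.4 TPM (log2 -1.68, q = 7.16e-06) and its neighbour MT1X at 926, 813 and 891 TPM against 521, 529 and 571 TPM (log2 0.70, q = 1.54e-04). As listed, the lines thus separated in opposite directions within the same gene cluster.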
